A study of Mus musculus with 4 samples.

Results

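CD8 T cells of the mouse retina and choroid were chosen by their transcripts. A cell was taken when it held 1 or more unique molecular identifiers (UMIs, each standing for 1 captured transcript) of Ptprc, of at least 2 of Cd3e, Cd3d, Cd3g, Trac and Trbc2, and of Cd8a or Cd8b1. The rule found 270 CD8 T cells among 36701 cells. There were 107 in the aged CNV library, 119 in the aged control library, 22 in the young CNV library and 22 in the young control library. Cells that met the rule except for a CD8 UMI, 204 in all, are called T cells without CD8 UMIs. They numbered 101 in aged CNV, 50 in aged control, 44 in young CNV and 9 in young control, and 61 of them held Cd4 UMIs and 71 Trdc UMIs.

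The study profiled retina and choroid of wild-type (WT) mice by droplet single-cell RNA sequencing, with 1 library per group. Aged CNV mice were over 18 months old and were taken 3 days after laser photocoagulation to bring on choroidal neovascularisation (CNV, vessel growth from the choroid), and aged control mice were over 18 months old and without CNV. Young CNV mice were 6 to 8 weeks old and were taken 3 days after the same laser treatment, and young control mice were 6 to 8 weeks old and without CNV. The laser worked at 532 nm and 200 mW for 0.150 s on 100 µm spots, rods were depleted from the retina by CD73, and the number of animals per library is not given in the sources used here. With 1 library per group no difference was tested, every interval is a 95% interval that covers counting error only, and animals, batches and groups cannot be told apart.

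CD8 T cells recognise peptides on class I MHC molecules through the T cell receptor and the CD8 coreceptor, and kill target cells with perforin and granzymes or act through cytokines such as interferon gamma. After a response, some stay in the tissue as resident memory cells, held there by integrins such as CD103 and CD49a, while others recirculate. The healthy retina holds few lymphocytes because of the blood-retina barriers, whereas the choroid lies outside them.

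The genes of the rule describe how firmly the cells were identified and are no finding. Both Cd8a and Cd8b1, the 2 chains of the coreceptor, had UMIs in 216 of 270 cells (80.0%), 38 cells held Cd8b1 only and 16 held Cd8a only. Just inside the rule lay 24 cells with a single CD8 UMI and 7 cells with exactly 2 of the 5 receptor genes. Just outside lay 3 cells with Ptprc, CD8 and 1 receptor gene, 13 with Ptprc and CD8 but no receptor gene, and 1 that lacked only Ptprc. Cd8a summed over the cells gave 200 CPM (the UMIs of a gene per sum of UMIs of the cells, on the usual CPM scale) in aged CNV, 336 CPM in aged control, 631 CPM in young CNV and 615 CPM in young control, against at most 0.404 CPM in cells that are not T cells. Cd4 had UMIs in 1 of the 270 cells, and Trdc, the constant gene of the delta chain, in 6. Cd8a levels follow from the rule, so only Cd4 and Trdc here lie outside it. A longer CD4 and regulatory list had UMIs in 78 aged CNV, 82 aged control, 15 young CNV and 18 young control cells. A gamma delta and innate-like list had UMIs in 39, 32, 7 and 13 cells in that order. Both lists summed to fewer CPM in CD8 T cells than in T cells without CD8 UMIs of each library.

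Depth was similar across the groups. Median UMIs per CD8 T cell were 6511 in aged CNV, 7519 in aged control, 6970.5 in young CNV and 7411.5 in young control, and the summed UMIs were 854766 in aged CNV, 981977 in aged control, 176034 in young CNV and 190386 in young control. Values of the young libraries rest on 22 cells each and are the least precise. Across the whole series 124 barcodes occurred in more than 1 library, which touched 5 CD8 T cells and no pair of them.

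Transcripts of other cells were present in part of the CD8 T cells. A Scrublet doublet score over 0.2, or over 0.5% of UMIs in marker lists of other cells, was found in 16 aged CNV, 11 aged control, 5 young CNV and 3 young control cells, called mixed cells below. At least 2 UMIs of B cell, macrophage or neutrophil markers, or a Cd4 UMI, were found in 50 aged CNV, 33 aged control, 19 young CNV and 5 young control cells, so that 3 young CNV cells lacked them. Summed macrophage markers reached 204 CPM in aged CNV, 116 CPM in aged control, 403 CPM in young CNV and 105 CPM in young control. Summed fibroblast markers reached 2367 CPM in aged CNV, 529 CPM in aged control, 653 CPM in young CNV and 2957 CPM in young control. Once mixed cells were left out they came to 78.6 CPM in aged CNV, 36.8 CPM in aged control, 691 CPM in young CNV and 241 CPM in young control. Between the aged libraries all 5 fibroblast markers measured were at least 2-fold higher in aged CNV and all 5 measured markers of pigment epithelium at least 2-fold lower. Of 5 endothelial markers 4 were at least 2-fold higher in aged CNV, and summed they reached 228 CPM in aged CNV, 78.4 CPM in aged control, 79.5 CPM in young CNV and 15.8 CPM in young control. The part of these cells in the results was not tested.

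CD8 T cells made up a larger share of the aged libraries than of the young ones, and a smaller share of leukocytes after laser than without it. They were 1.38% of all cells in aged CNV (exact Clopper-Pearson interval 1.14 to 1.67), 1.78% in aged control (1.48 to 2.13), 0.202% in young CNV (0.127 to 0.306) and 0.193% in young control (0.121 to 0.291). The aged control share was 9.26 times the young control share (5.84 to 15.3), and the aged CNV share 6.84 times the young CNV share (4.29 to 11.4). The laser ratios were 0.776 in aged eyes (0.592 to 1.02) and 1.05 in young eyes (0.555 to 1.99), and both intervals hold 1.

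Among cells with a Ptprc UMI, a gene of all leukocytes, the laser ratios lay lower. CD8 T cells were 107 of 1326 such cells in aged CNV (8.07%) and 119 of 594 in aged control, a ratio of 0.403 (0.307 to 0.527). They were 1.28% in young CNV and 5.61% in young control, a ratio of 0.227 (0.120 to 0.430). Cells with a Ptprc UMI were themselves more numerous after laser, also in young eyes, with 1725 in young CNV against 392 in young control.

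Among T cells, CD8 T cells were 51.4% in aged CNV and 70.4% in aged control, and 33.3% in young CNV and 71.0% in young control. T cells without CD8 UMIs were a larger share of all cells after laser, by 1.74 times in aged eyes (1.23 to 2.50) and 5.14 times in young eyes (2.48 to 12.0). Cells were counted from their UMIs, so depth bears on the shares: with every cell thinned to 1000 UMIs, the age ratio over all cells was 6.23 (2.96 to 14.7) in controls and 3.62 (1.69 to 8.40) after laser. Young control cells overall had a median of 2593 UMIs, against 6427.5 in aged control.

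**Figure D1:**
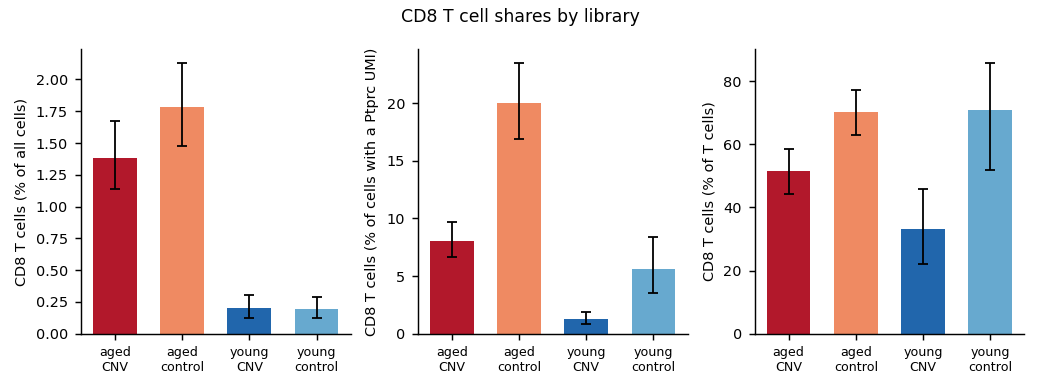
Share of CD8 T cells in percent of all cells (left), of cells with a Ptprc UMI (middle) and of T cells (right) in the 4 libraries; bars are shares and whiskers exact 95% intervals. The aged libraries stand at 1.38% and 1.78% of all cells and the young ones at 0.202% and 0.193%, while among cells with a Ptprc UMI each CNV library stands below its control.

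In aged eyes the CD8 T cells after laser held more transcripts of interferon-stimulated genes. Of 9586 genes with at least 20 UMIs over both libraries, 12.5% were at least 2-fold higher in aged CNV and 3.37% at least 2-fold lower. Of the 18 genes of the interferon-stimulated list, all measured, 10 were at least 2-fold higher and 0 at least 2-fold lower. Their median log2 ratio of CPM was 1.18, against 0.01 over all genes, and 10 were still past 2-fold higher both without mixed cells and without cells holding other leukocytes' UMIs.

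Ifit1, Oasl2 and Ifit3 had the largest ratios, but at equal depth Ifit1 and Oasl2 UMIs were not more frequent in CD8 T cells than in cells without Ptprc. Ifit3, whose protein acts with Ifit1 on viral RNA, had 194 CPM in aged CNV, 28.5 CPM in aged control, 62.5 CPM in young CNV and 5.25 CPM in young control. Its log2 ratio in aged eyes was 2.77 (2.18 to 3.40), with UMIs in 47 of 107 aged CNV and 19 of 119 aged control cells. Ifit1 itself had 81.9 CPM in aged CNV, 6.11 CPM in aged control, 79.5 CPM in young CNV and 15.8 CPM in young control, a log2 ratio of 3.74 in aged eyes. In both genes the CNV library of each age was above its control. In young eyes, however, neither gene reached the minimum number of UMIs for a ratio. The young order of these 2 genes thus rests on few UMIs and is not read as a repeat of the aged difference.

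Isg15, a ubiquitin-like modifier, had 105 CPM in aged CNV, 29.5 CPM in aged control, 148 CPM in young CNV and 52.5 CPM in young control. The log2 ratio was 1.83 (1.22 to 2.49) in aged eyes and 1.49 (0.39 to 2.71) in young eyes. Ifi27l2a, another interferon-induced gene, had 421 CPM in aged CNV, 79.4 CPM in aged control, 682 CPM in young CNV and 394 CPM in young control, with log2 ratios of 2.41 in aged and 0.79 in young eyes. For both genes aged control was the lowest of the 4 libraries.

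Further members at least 2-fold higher in aged CNV were Oasl2 of the oligoadenylate synthetase family (log2 ratio 3.07), Rtp4 (2.22), the nucleic acid sensor Zbp1 (1.44), Irf7, a transcription factor that drives type I interferon genes (1.37), the surface protein Ly6a (1.20) and the GTPase Igtp (1.16). Bst2, which tethers virions to the membrane, came to 0.99. Gbp4, an interferon-induced GTPase, had 57.3 CPM in aged CNV and 70.3 CPM in aged control.

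Upstream sequences of 3 of these genes are shown because they hold letters typical of interferon-stimulated response elements. Each is a stretch of 100 bases in RefSeq's annotation of GRCm38.p6, the build that mm10 names, from 124 to 25 bases before the start of Ifit1, 176 to 77 before that of Ifit3 and 100 to 1 before that of Isg15, read 5′ to 3′ on the gene's strand, with matches to a motif in capitals, on either strand. The motif is GAAA, any 2 bases, and GAAA again. Ifit1 is shown from chr19:34640765-34640864 on the plus strand, Ifit3 from chr19:34583353-34583452 on the plus strand and Isg15 from chr4:156200819-156200918 on the minus strand.
Ifit1: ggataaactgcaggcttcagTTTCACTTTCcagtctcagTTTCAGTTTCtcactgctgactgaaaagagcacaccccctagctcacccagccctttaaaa
Ifit3: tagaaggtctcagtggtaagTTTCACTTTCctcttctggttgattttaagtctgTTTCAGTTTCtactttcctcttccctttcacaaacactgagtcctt
Isg15: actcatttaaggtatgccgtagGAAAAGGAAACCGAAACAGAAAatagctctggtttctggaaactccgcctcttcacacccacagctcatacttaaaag
Ifit1 and Ifit3 hold 2 matches each, on the other strand, and Isg15 holds 3 that overlap. Of the 18 list genes, 11 had a promoter in the RefSeq table, and 8 of these (72.7%) held the motif in the 250 bases before their start, against 541 of 16706 genes in the matrix (3.24%). Genes were put on the list as interferon-stimulated, so this share is no result of these data. Among members at least 2-fold higher in aged CNV it was 4 of 6 with a promoter (66.7%). A match describes letters and not binding.

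Genes of the list were also higher in other cells of the aged CNV library. In T cells without CD8 UMIs 10 of 17 measured members were at least 2-fold higher, against 14.8% of all genes there, with a median log2 ratio of 1.41. In cells that are not T cells it was 15 of 18, against 9.51% of all genes, with a median of 1.62. The genes differed in part, since Igtp had a log2 ratio of -0.36 and Zbp1 of 0.89 in T cells without CD8 UMIs. The size of the ratio was not compared between these kinds of cell by a test. Summed over the list, CD8 T cells held 2659 CPM in aged CNV, 1250 CPM in aged control, 2409 CPM in young CNV and 1523 CPM in young control, and cells that are not T cells held 2274 CPM in aged CNV, 766 CPM in aged control, 3044 CPM in young CNV and 1746 CPM in young control. The CD8 T cells thus stood at 117% of the level in cells that are not T cells in aged CNV. It was 163% in aged control, 79.1% in young CNV and 87.2% in young control.

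Counted per cell at 1000 UMIs each, 34.6% of aged CNV CD8 T cells (25.6 to 44.4) and 8.40% of aged control CD8 T cells (4.1 to 14.9) held UMIs of at least 3 list genes. In young eyes it was 22.7% in CNV (7.82 to 45.4) and 9.09% in control (1.12 to 29.2). Cells without a Ptprc UMI, many of which can express these genes, gave 17.4% in aged CNV, 4.46% in aged control, 23% in young CNV and 9.48% in young control. The cells without Ptprc had median depths of 6799 UMIs in aged CNV, 6257.5 in aged control, 6406 in young CNV and 2488 in young control, and of them 238, 214, 454 and 1875 in that order were too shallow to be thinned. The CD8 T cell share thus lay above that of cells without Ptprc in aged CNV and not in young CNV, and the part of free RNA in the single-cell values was not tested. Unthinned, the median CD8 T cell held UMIs of 7 list genes in aged CNV, 4 in aged control, 5.5 in young CNV and 5 in young control. For single genes at 1000 UMIs in aged CNV, Ifit3 was found in 17.8% of CD8 T cells and 9.79% of cells without Ptprc, Isg15 in 9.35% and 5.64%, and Zbp1 in 14% and 1.85%. Ifit1, in 5.61% and 5.81%, and Oasl2, in 3.74% and 7.64%, were not above the cells without Ptprc. The part of free RNA in the values of these 2 genes was not tested.

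**Figure D2:**
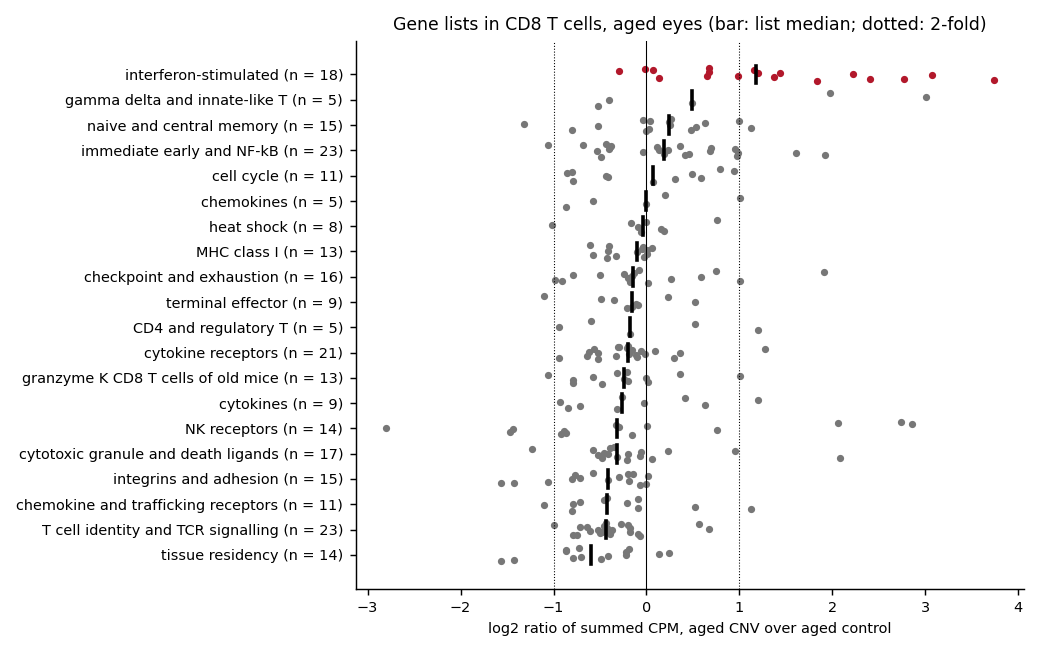
Log2 ratio of summed CPM, aged CNV over aged control, for each measured gene of 20 lists in CD8 T cells, with each list's median as a black bar and 2-fold as dotted lines. The interferon-stimulated list (red) has the highest median at 1.18, and tissue residency the lowest at -0.60.

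Integrins of tissue residency were lower in CD8 T cells of aged CNV than of aged control eyes, and the residency list had a median below that of all genes. Of 14 measured members 2 were at least 2-fold lower, against 3.37% of all genes, and 0 at least 2-fold higher, against 12.5%. The median log2 ratio was -0.60, against 0.01 over all genes. It was -0.24 with each cell weighted alike and -0.40 without mixed cells. T cells without CD8 UMIs had a median of -0.49 for this list, against -0.02 over all genes there. For the integrin and adhesion list their median was -0.69. Itga1 encodes CD49a, the alpha chain of a collagen-binding integrin. It had 180 CPM in aged CNV, 486 CPM in aged control, 284 CPM in young CNV and 431 CPM in young control. Its log2 ratio in aged eyes was -1.43 (-1.70 to -1.17), and 54 of 107 aged CNV and 85 of 119 aged control cells had a UMI. Itgae encodes CD103, the alpha chain of an integrin that binds E-cadherin. It had 19.9 CPM in aged CNV, 59.1 CPM in aged control, 318 CPM in young CNV and 394 CPM in young control. The log2 ratio of Itgae in aged eyes was -1.57 (-2.44 to -0.77). Both integrin chains were thus lower in aged CNV than in aged control. The young levels rest on 22 cells each, and their laser ratios are not given here.

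Cxcr6, a chemokine receptor of resident T cells, had 147 CPM in aged CNV, 256 CPM in aged control, 403 CPM in young CNV and 299 CPM in young control, with a log2 ratio of -0.79 in aged eyes that shrank to -0.18 with cells weighted alike. Itga4, the alpha chain of VLA-4, had 383 CPM in aged CNV and 798 CPM in aged control, and 347 CPM in young CNV and 499 CPM in young control. Its log2 ratios were -1.06 in aged and -0.53 in young eyes. It was 1 of 3 genes at least 2-fold lower among 15 measured integrin and adhesion genes in aged eyes, against 3.37% of all genes.

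Receptors shared with natural killer (NK) cells differed in both directions, with 3 of 14 measured members at least 2-fold higher, 3 at least 2-fold lower and a median log2 ratio of -0.32. Over all genes 12.5% were at least 2-fold higher and 3.37% at least 2-fold lower. Klrc1, the inhibitory receptor NKG2A, had 121 CPM in aged CNV, 334 CPM in aged control, 153 CPM in young CNV and 221 CPM in young control, a log2 ratio of -1.47 (-1.80 to -1.15) in aged eyes. UMIs of Klrc1 were found in 38 of 107 aged CNV and 81 of 119 aged control cells. Its partner Klrd1 (CD94) had 137 CPM in aged CNV and 259 CPM in aged control (log2 ratio -0.92), and the activating receptor Klrk1 (NKG2D) 335 CPM in aged CNV and 613 CPM in aged control (-0.87). Klre1, a further lectin-like receptor, had 39.8 CPM in aged CNV and 108 CPM in aged control (-1.44). The third gene at least 2-fold lower was Klri2, with no UMI in aged CNV and UMIs in 2 aged control cells. The 4 receptors above were lower in aged CNV, while their level in cells that are not T cells was at most 3.05 CPM in both aged libraries.

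The members higher in aged CNV were Ncr1, with UMIs in 4 aged CNV and 2 aged control cells, and the adaptors Tyrobp and Fcer1g. Tyrobp had 67.9 CPM in aged CNV and 10.2 CPM in aged control (log2 ratio 2.74), and Fcer1g 67.9 CPM in aged CNV and 16.3 CPM in aged control (2.06). Cells that are not T cells held more, with 242 CPM of Tyrobp and 323 CPM of Fcer1g in aged CNV and 131 and 132 CPM in aged control. Without cells holding other leukocytes' UMIs the log2 ratios were 0.90 for Tyrobp and 0.00 for Fcer1g. Summed markers of NK cells reached 234 CPM in aged CNV, 167 CPM in aged control, 165 CPM in young CNV and 99.8 CPM in young control, and the part of RNA from other cells was not tested.

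By size of ratio alone, most of the 10 leading genes per direction in aged eyes came from single cells. One cell gave at least 50% of the UMIs of 9 of the 10 leading higher genes and 7 of the 10 leading lower ones. The rest were Igfbp6 among the higher genes, and the histone gene Hist1h2ae, Crtam and Styk1 among the lower ones. Crtam, an adhesion receptor of activated CD8 T cells, had 26.9 CPM in aged CNV and 104 CPM in aged control, with UMIs in 19 of 107 aged CNV and 56 of 119 aged control cells and a log2 ratio of -1.95 (-2.67 to -1.29). Styk1, a kinase-like protein, had 14 CPM in aged CNV and 82.5 CPM in aged control, with UMIs in 7 aged CNV and 22 aged control cells and a log2 ratio of -2.55.

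Genes of identity and of killing were mostly within 2-fold, though their medians were below that of all genes. The T cell identity and receptor signalling list had 0 of 23 members past 2-fold in either direction in aged eyes, with a median log2 ratio of -0.43, the lowest of the 20 lists after residency, that was -0.21 without mixed cells. T cells without CD8 UMIs had a median of -0.51 for this list. Of 17 measured cytotoxic genes 1 was past 2-fold higher and 1 lower, with a median of -0.32. Ccl5, a chemokine stored by memory CD8 T cells, had 3833 CPM in aged CNV and 3847 CPM in aged control. It had rank 3 by mean CPM of the 4 libraries. Mitochondrial, ribosomal protein and T cell receptor genes, among others, were left out of that ranking. Gzmb, which triggers apoptosis of target cells, had 220 CPM in aged CNV and 211 CPM in aged control, and Gzmk 106 CPM in aged CNV and 149 CPM in aged control (log2 ratio -0.48, -0.88 to -0.09). Gzmm, a further granzyme, had 81.9 CPM in aged CNV and 19.3 CPM in aged control (2.08), but cells that are not T cells held 27.5 CPM in aged CNV and 66.5 CPM in aged control. The class I MHC list had 0 of 13 members past 2-fold and a median of -0.10.

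S1pr1, the receptor that draws T cells out of tissue into lymph and blood, had 79.6 CPM in aged CNV, 36.7 CPM in aged control, 45.4 CPM in young CNV and 89.3 CPM in young control (log2 ratio 1.12 in aged eyes, 0.51 to 1.74). Endothelial cells also express it, and cells that are not T cells held 32.8 CPM in aged CNV, 45.9 CPM in aged control, 52.8 CPM in young CNV and 59.9 CPM in young control. Without mixed cells the log2 ratio was 1.16, and at 1000 UMIs per cell 0.52. The list of naive and central memory genes had 2 of 15 members past 2-fold higher and 1 lower, with a median of 0.24.

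**Figure D3:**
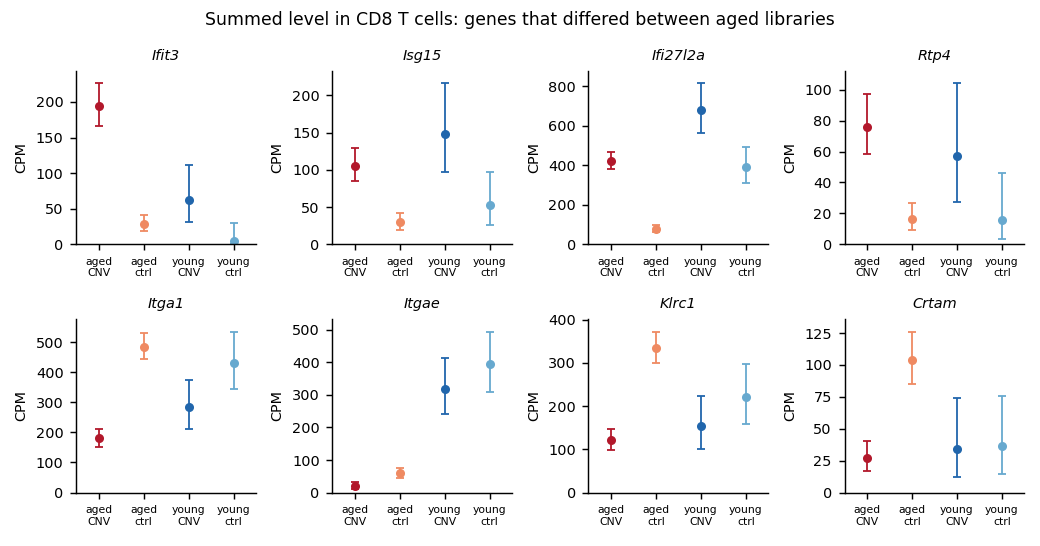
Summed level (CPM) in CD8 T cells of 8 genes in the 4 libraries, with points for levels and whiskers for exact Poisson 95% intervals. Ifit3, Isg15, Ifi27l2a and Rtp4 are higher in aged CNV than in aged control, and Itga1, Itgae, Klrc1 and Crtam are lower.

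In young eyes 22 CD8 T cells after laser were set against 22 without it. Of 3575 genes with at least 20 UMIs over both libraries, 7.50% were at least 2-fold higher and 6.24% at least 2-fold lower, and 1 cell gave at least 50% of the UMIs in all 20 leading genes. Of 9 measured interferon-stimulated genes 2 were at least 2-fold higher and 0 lower, with a median log2 ratio of 0.79 against -0.00 over all genes. Ifng, which encodes interferon gamma, had 278 CPM in young CNV and 99.8 CPM in young control, a log2 ratio of 1.48 (0.69 to 2.33), with UMIs in 11 of 22 young CNV and 8 of 22 young control cells. In aged eyes Ifng stood at 80.7 CPM in CNV and 101 CPM in control. Gzma had 3539 CPM in young CNV and 2269 CPM in young control (log2 ratio 0.64, and 0.20 with cells weighted alike). The cytotoxic list had 1 of 14 members past 2-fold in each direction, and the class I MHC list 0 of 13.

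CD8 T cells of aged eyes held far less granzyme A than those of young eyes, with and without laser. Of 7616 genes measured in the controls, 18.0% were at least 2-fold higher in aged control and 7.44% at least 2-fold lower, 25.5% in all. Of 7843 genes measured after laser, 18.8% were at least 2-fold higher in aged CNV than in young CNV. In the same comparison 549 genes were at least 2-fold lower, and 25.8% were past 2-fold in either direction. Gzma, a tryptase of cytotoxic granules, had 193 CPM in aged CNV, 223 CPM in aged control, 3539 CPM in young CNV and 2269 CPM in young control. It had UMIs in 11 of 107 aged CNV cells, 13 of 119 aged control cells, 11 of 22 young CNV cells and 12 of 22 young control cells. The log2 ratio was -4.20 (-4.45 to -3.95) after laser and -3.35 (-3.59 to -3.11) in controls, and both aged libraries lay far below both young ones. Cells that are not T cells held at most 6.82 CPM.

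Other granule and chemokine genes differed less. Ccl5 had 3833 CPM in aged CNV, 3847 CPM in aged control, 10435 CPM in young CNV and 9355 CPM in young control, with log2 ratios of -1.45 after laser and -1.28 in controls. Gzmb had 220 CPM in aged CNV, 211 CPM in aged control, 602 CPM in young CNV and 452 CPM in young control (-1.45 and -1.10), and 1 cell gave 73.3% of its UMIs in young control. Gzmk, the granzyme of a CD8 T cell state described in old mice, had 106 CPM in aged CNV, 149 CPM in aged control, 114 CPM in young CNV and 137 CPM in young control. Its interval held a ratio of 1 in both age comparisons, and Gzmk UMIs were found in 33 of 107 aged CNV, 58 of 119 aged control, 7 of 22 young CNV and 8 of 22 young control cells. Serpinb9, which shields killer cells from their own granzyme B, had 180 CPM in aged CNV, 187 CPM in aged control, 79.5 CPM in young CNV and 63.0 CPM in young control (1.18 and 1.57). Of 16 measured cytotoxic genes, 2 were past 2-fold higher and 2 lower after laser, and 1 higher and 2 lower in controls.

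CD103 differed with age as well. Itgae stood at 19.9 CPM in aged CNV, 59.1 CPM in aged control, 318 CPM in young CNV and 394 CPM in young control, log2 ratios of -4.00 (-4.88 to -3.20) after laser and -2.74 (-3.26 to -2.22) in controls. UMIs of Itgae were found in 7 of 107 aged CNV, 19 of 119 aged control, 8 of 22 young CNV and 13 of 22 young control cells. Its beta chain Itgb7 had 131 CPM in aged CNV, 129 CPM in aged control, 381 CPM in young CNV and 273 CPM in young control (-1.54 and -1.08). Both chains were thus lower in aged cells. Itga1 stood at 180 CPM in aged CNV, 486 CPM in aged control, 284 CPM in young CNV and 431 CPM in young control. After laser it was lower in the aged library. In controls the aged and young levels lay closer together, and their ratio is not given here.

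Among terminal effector genes, 6 of 9 measured members were at least 2-fold lower in aged CNV than in young CNV. Of all 7843 genes measured there, 549 were lower. The list had a median log2 ratio of -1.18, against 0.18 over all genes. It was -1.23 without mixed cells and -1.41 without cells holding other leukocytes' UMIs, where 3 young CNV cells remained. In aged control 1 of 8 members was lower than in young control, against 7.44% of all genes. The median there was -0.19, against 0.22 over all genes. Klrg1, an inhibitory receptor of effector cells, had 16.4 CPM in aged CNV and 96.6 CPM in young CNV (-2.56), and Cx3cr1, the fractalkine receptor, 42.1 CPM in aged CNV and 142 CPM in young CNV (-1.75). Klrg1 had UMIs in 6 of 22 and Cx3cr1 in 7 of 22 young CNV cells, and at 1000 UMIs Cx3cr1 was found in 9.09% of young CNV CD8 T cells and 0.852% of cells without Ptprc. In the same comparison 3 of 3 measured macrophage markers and 9 of 9 rod markers were at least 2-fold lower in aged CNV, and 19 of the 22 young CNV cells held other leukocytes' UMIs. Their part was not tested. The difference between the laser and the control comparison was not tested.

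The next genes were higher in the aged libraries and are described after their values were seen, where 18.0% of all genes in controls and 18.8% after laser were at least 2-fold higher. Tox, which sustains chronically stimulated T cells, had 771 CPM in aged CNV, 883 CPM in aged control, 193 CPM in young CNV and 236 CPM in young control, with log2 ratios of 2.0 after laser and 1.9 in controls. Bcl2, which blocks apoptosis, had 1598 CPM in aged CNV, 1645 CPM in aged control, 665 CPM in young CNV and 273 CPM in young control (1.27 and 2.59). Eomes, a transcription factor of memory CD8 T cells, had 101 CPM in aged CNV, 119 CPM in aged control, 17.0 CPM in young CNV and 21.0 CPM in young control (2.56 and 2.50), with UMIs in 42 of 107 aged CNV, 55 of 119 aged control, 2 of 22 young CNV and 3 of 22 young control cells. Its ratio after laser was -1.06 at 1000 UMIs per cell and -0.03 without cells holding other leukocytes' UMIs, where 3 young CNV cells remained. Satb1, a chromatin organiser of T cells, had 567 CPM in aged CNV, 478 CPM in aged control, 216 CPM in young CNV and 152 CPM in young control (1.39 and 1.65).

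Ly6c2, a surface protein of memory CD8 T cells, had 810 CPM in aged CNV, 678 CPM in aged control, 437 CPM in young CNV and 221 CPM in young control, with log2 ratios of 0.89 after laser and 1.62 in controls. Txk, a kinase of T cell receptor signalling, had 376 CPM in aged CNV, 254 CPM in aged control, 108 CPM in young CNV and 52.5 CPM in young control (1.80 and 2.27). Klrk1 stood at 613 CPM in aged control and 278 CPM in young control (1.14). Fgf13, an intracellular fibroblast growth factor homologue, had 592 CPM in aged CNV, 702 CPM in aged control, 85.2 CPM in young CNV and 42.0 CPM in young control (2.80 and 4.06), and its UMIs lay in 65 of 107 aged CNV, 84 of 119 aged control, 5 of 22 young CNV and 2 of 22 young control cells. Cells that are not T cells held 81.9 CPM of Fgf13 in aged CNV, 123 CPM in aged control, 20.2 CPM in young CNV and 52.9 CPM in young control.

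Of 19 measured cytokine receptor genes, 8 were at least 2-fold higher in aged control than in young control and 2 lower, with a median log2 ratio of 0.92 against 0.22 over all genes. After laser 4 of 20 were higher and 1 lower, with a median of 0.48 against 0.18. Il7r, the receptor chain for the survival cytokine interleukin 7, had 463 CPM in aged CNV, 664 CPM in aged control, 301 CPM in young CNV and 268 CPM in young control (0.62 and 1.31). Il2rb, the chain shared by the receptors for interleukins 2 and 15, had 408 CPM in aged CNV, 331 CPM in aged control, 205 CPM in young CNV and 158 CPM in young control (1.0 and 1.07). Il12rb2, a chain of the interleukin 12 receptor, had 186 CPM in aged CNV, 188 CPM in aged control, 62.5 CPM in young CNV and 73.5 CPM in young control (1.57 and 1.36).

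Class I MHC genes were split. Of 13 members, 4 were at least 2-fold lower and 0 higher in aged CNV than in young CNV. Of all 7843 genes measured there, 549 were lower and 1473 higher. In aged control 3 members were lower and 1 higher than in young control, against 7.44% and 18.0% of all genes. H2-T23, which encodes Qa-1, the ligand of NKG2A, had 63.2 CPM in aged CNV, 93.7 CPM in aged control, 239 CPM in young CNV and 305 CPM in young control (log2 ratios -1.92 and -1.70). H2-D1 had 668 CPM in aged CNV, 893 CPM in aged control, 1727 CPM in young CNV and 1844 CPM in young control (-1.37 and -1.05), and B2m, the shared light chain, 860 CPM in aged CNV, 1083 CPM in aged control, 2051 CPM in young CNV and 1849 CPM in young control (-1.25 and -0.77). With genes of like span taken off, the median log2 ratio of the list was -0.19 after laser and -0.05 in controls, where it had been -0.47 and -0.51. In cells that are not T cells the median of the list in controls was -0.74. H2-K1 stood between 1750 and 1966 CPM in all 4 libraries.

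Of the interferon-stimulated list, 2 of 18 genes were at least 2-fold higher and 0 lower in aged CNV than in young CNV. Of all 7843 genes measured there, 1473 were higher and 549 lower. In controls 2 of 15 list genes were past 2-fold in each direction, against 18.0% higher and 7.44% lower over all genes. The median log2 ratios of the list were 0.36 after laser and 0.22 in controls, against 0.18 and 0.22 over all genes. Ifi27l2a was lower in aged control than in young control, with a log2 ratio of -2.31.

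The age ratio also went with the length of the gene, in CD8 T cells and in the other cells alike. For genes spanning under 5 kb the median log2 ratio of aged control over young control was -0.45 in CD8 T cells and -0.49 in cells that are not T cells, and for genes over 100 kb it was 0.63 and 0.52. After laser it was -0.28 and -0.39 for the short genes and 0.66 and 0.66 for the long ones. With the median of genes of like span taken off, the log2 ratios after laser and in controls were -4.04 and -3.05 for Gzma, -4.30 and -3.23 for Itgae, and -1.17 and -0.83 for Ccl5. They were 1.34 and 1.27 for Tox, 0.61 and 1.96 for Bcl2, 1.17 and 2.07 for Ly6c2, 2.14 and 3.43 for Fgf13, and -1.64 and -1.25 for H2-T23. The direction of these 8 genes was the same, and the part of the length pattern in the age differences was not tested.

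**Figure D4:**
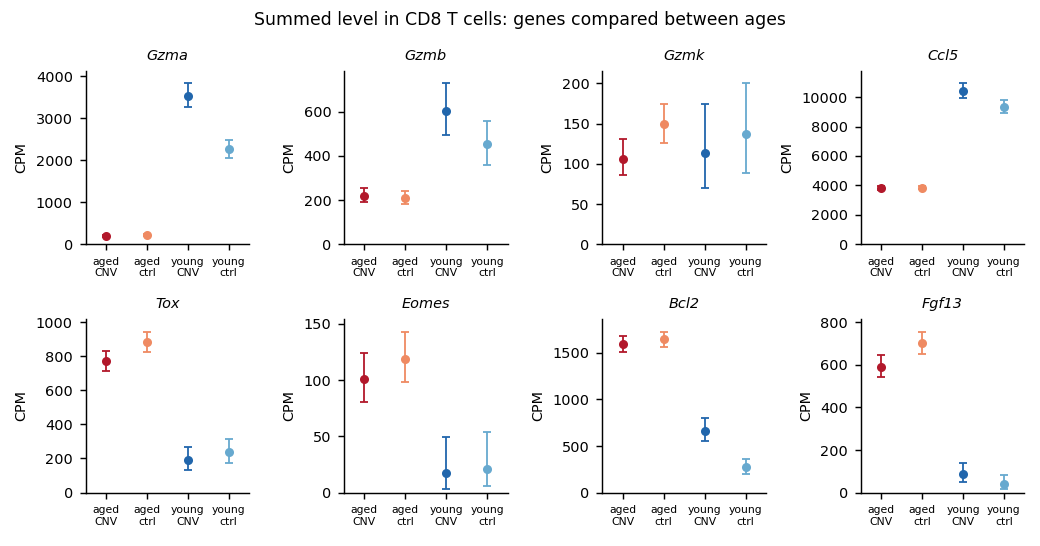
Summed level (CPM) in CD8 T cells of 8 genes in the 4 libraries, with points for levels and whiskers for exact Poisson 95% intervals. Gzma, Gzmb and Ccl5 are lower in both aged libraries than in both young ones, Tox, Eomes, Bcl2 and Fgf13 are higher, and Gzmk intervals overlap.

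**Figure D5:**
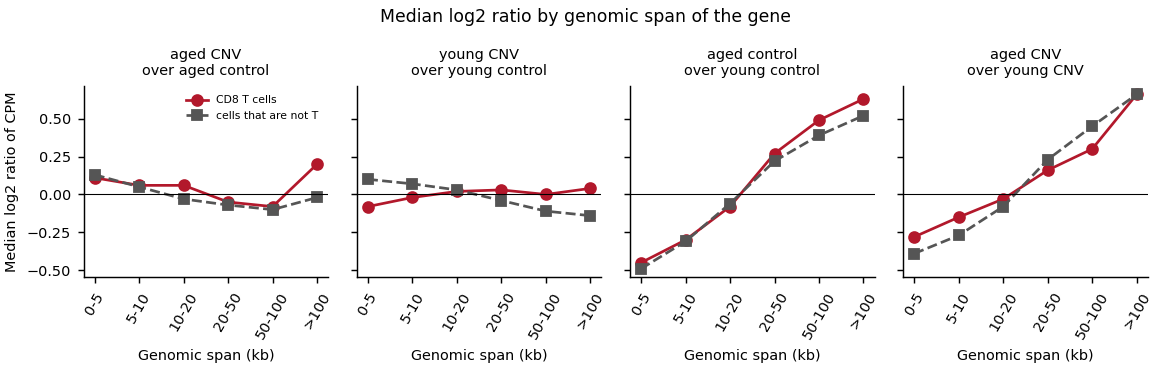
Median log2 ratio of CPM for genes in 6 bins of genomic span, in CD8 T cells (red circles) and in cells that are not T cells (grey squares), for the 4 comparisons. In both age comparisons the medians climb with span, between -0.45 and 0.63 for CD8 T cells of controls, and in the laser comparisons they stay within 0.20 of 0 in CD8 T cells.

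Against T cells without CD8 UMIs of the same library, CD8 T cells were set apart by killer and chemokine genes, a description since CD8 UMIs chose the cells. Of 9559 genes in aged CNV 6.14% were at least 2-fold higher in CD8 T cells. It was 8.98% of 8030 in aged control and 13.0% of 5865 in young CNV. Cytotoxic genes can reach the minimum number of UMIs through the CD8 T cells alone, such as Gzmb with 207 against 1 UMIs in aged control. No count over that list is therefore given, and the marker counts below carry a like limit. Summed over all 18 genes of the cytotoxic list, CD8 T cells held 3314 CPM and the other T cells 1987 CPM in aged CNV. It was 3667 against 2078 CPM in aged control and 8033 against 2268 CPM in young CNV. The other T cells held more macrophage markers, of which 7 of 7 measured in aged CNV and 5 of 5 in young CNV were at least 2-fold lower in CD8 T cells, and in young CNV more fibroblast markers (5 of 5). CD8 T cells held more rod markers, with 6 of 7 at least 2-fold higher in aged CNV and 9 of 9 in young CNV. Rod markers summed to 521 CPM in CD8 T cells of aged CNV and 2789 CPM in those of young CNV. Without mixed cells the sums were 190 CPM in aged CNV and 184 CPM in young CNV. The part of these transcripts of other cells was not tested. In all 14.6% of genes were past 2-fold in aged CNV, 17.1% in aged control and 30.5% in young CNV. Among genes past 2-fold the higher ones were 52.4% in aged control and 42.5% in young CNV, and with scaling by TMM factors 62.6% and 29%. Gzmb had 220 CPM in CD8 T cells and 25.7 CPM in the other T cells of aged CNV, 211 CPM in CD8 T cells and 3.20 CPM in the others in aged control, and 602 CPM in CD8 T cells and 30.4 CPM in the others in young CNV. Ccl5 had 3833 CPM in CD8 T cells and 938 CPM in the other T cells of aged CNV, 3847 against 893 CPM in aged control, and 10435 against 676 CPM in young CNV. Gzma had 3539 CPM in CD8 T cells and 413 CPM in the other T cells of young CNV, but 193 CPM in CD8 T cells and 182 CPM in the others in aged CNV.

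The other T cells held genes of gamma delta and innate-like T cells. As background, 8.41% of all genes were at least 2-fold lower in CD8 T cells of aged CNV, 8.17% in aged control and 17.6% in young CNV. Genes of this list reach the minimum of 20 UMIs mostly through the other T cells, so no count over the list is given. Cd163l1, a scavenger receptor of gamma delta T cells, had 3.51 CPM in CD8 T cells and 586 CPM in the other T cells of aged CNV, and 2.04 against 772 CPM in aged control. Il17a, the cytokine interleukin 17A, had 1.17 CPM in CD8 T cells and 171 CPM in the others in aged CNV, and 12.2 against 445 CPM in aged control. Trdc had 16.4 CPM in CD8 T cells and 396 CPM in the others in aged CNV, and 23.4 against 551 CPM in aged control.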

How the data were processed

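The authors deposited unnormalised UMI counts of 24783 genes in 36701 cells. Cell Ranger, Seurat 4.1.1 and the build mm10 are named, without order or annotation, per the submitters' processing notes. Column prefixes gave the library, with y read as young and e as aged. No doublets were removed in the values reported first. Members and gene lists were chosen with earlier results of these data known.

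UMIs were summed over CD8 T cells per library and scaled to CPM, with exact Poisson intervals. Log2 ratios carry exact conditional binomial intervals and need 20 UMIs over both libraries. A library at 0 is set to 3 counts. Named genes are the rule genes, up to 4 members per list by size with an interval off 0 and members that define a role, the 10 leading genes per direction and the 10 most abundant. The 10 leading genes had to reach 0.5 of the level in cells that are not T cells. Which of them are described was decided after the values were seen. Alternatives were other scalings (edgeR 4.0.16, DESeq2 1.42.0), minima, cell weights, thinning, doublet scores (scanpy 1.11.5) and, added after the data were seen, mixed cells and genomic span. The ratios and intervals were tested on simulated Poisson counts per library. These held no differences between cells, so the test cannot show how the intervals do where 1 cell gives most UMIs. Python 3.11.15 and R 4.3.3 were used. Some results are not reported here.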

Additional observations from a re-analysis of the deposited data

Results flagged for a closer look

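Jun and Egr1, immediate-early genes, moved in opposite directions with laser in the 2 ages, and the difference between ages was not tested. The log2 ratio of Jun was 1.92 in aged CNV over aged control and -1.51 in young CNV over young control. The log2 ratio of Egr1 was 1.61 in the aged pair and -2.44 in the young pair. In aged control 1 cell gave 62.7% of the Jun UMIs, and in young control 1 cell gave 58.8% of the Jun UMIs and 60.6% of the Egr1 UMIs. Without cells holding other leukocytes' UMIs, where 3 young CNV cells remained, the young ratios were 1.42 for Jun and 1.42 for Egr1. At 1000 UMIs per cell, CD8 T cells with Jun were 8.41% in aged CNV, 3.36% in aged control, 13.6% in young CNV and 9.09% in young control, all below the 29.5%, 20.7%, 45.3% and 36.6% of cells without a Ptprc UMI in that order.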

How the results depend on the processing

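No paired analysis was possible because each group has 1 library, and no replicate could be left out. Of 80 values for share ratios under other settings 70 lay within the counting interval of the reported one. With every cell thinned to 1000 UMIs, the share ratio over all cells was 0.591 for aged CNV over aged control and 3.62 for aged CNV over young CNV, and over cells with a Ptprc UMI 2.04 for aged control over young control and 2.79 for aged CNV over young CNV. Without cells holding other leukocytes' UMIs, the ratios over all cells were 0.572 for the aged laser pair, 0.186 for the young laser pair and 26.7 for aged CNV over young CNV, and over cells with a Ptprc UMI 0.297, 0.0401 and 24.7. The last 2 pairs rest on 3 young CNV cells.

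Genes past 2-fold in either direction numbered 1517 in the aged laser pair, 491 in the young laser pair, 1939 for aged control over young control and 2022 for aged CNV over young CNV. With a minimum of 50 UMIs the counts were 608, 95, 897 and 884, with at least 4 UMIs in 1 library 3250, 2435, 3954 and 4127, and at 1000 UMIs per cell 231, 18, 372 and 308, since these settings change how many genes are measured. Without cells holding other leukocytes' UMIs they were 947 in the aged laser pair and 1221 for aged CNV over young CNV, and without mixed cells 874 in the aged laser pair. The cause was not tested. Against T cells without CD8 UMIs, thinning gave 352 in aged CNV, 326 in aged control and 88 in young CNV. DESeq2 size factors moved the median of all genes in the young laser pair to -0.115, from -0.002. The most frequent alpha or beta receptor segment of each library had at least 2 UMIs in 1 cell of aged CNV, 0 of aged control, 0 of young CNV and 0 of young control.

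For 23 list medians, none of 115 values under other settings moved by more than the median counting error of the list's members. Lists outside these 23 moved more, such as checkpoint genes for aged CNV over young CNV, at 0.36 and, without cells holding other leukocytes' UMIs, -1.32. Of the genes, 4 values turned direction: Eomes for aged CNV over young CNV at 1000 UMIs per cell (-1.06) and without cells holding other leukocytes' UMIs (-0.03), and Jun (1.42) and Egr1 (1.42) in the young laser pair under the last setting.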

Other observations

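Genes found together in single cells were counted after their values were seen. Of cells with a UMI of Pdcd1, the inhibitory receptor PD-1, 31 of 31 in aged CNV, 29 of 40 in aged control, 4 of 6 in young CNV and 1 of 2 in young control also held Tox. Among all CD8 T cells Tox had UMIs in 62 of 107 in aged CNV, 69 of 119 in aged control, 7 of 22 in young CNV and 9 of 22 in young control. Of cells with Gzma, 10 of 11 in aged CNV, 11 of 13 in aged control, 8 of 11 in young CNV and 7 of 12 in young control held Gzmb, and among all CD8 T cells 30 of 107, 23 of 119, 13 of 22 and 8 of 22 in that order. Other pairs of genes counted are not described. At least 5 of 14 cell cycle genes were found in 6 of 107 aged CNV, 5 of 119 aged control, 2 of 22 young CNV and 1 of 22 young control cells.

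The matrix lists 13 variable segments of the T cell receptor alpha and beta chains. The most frequent in aged CNV, Trbv2, had UMIs in 5 of 107 aged CNV cells (4.67%, exact interval 1.53 to 10.6) and 2 of 119 aged control cells. Trav3-3 was the most frequent in aged control, with UMIs in 4 of 119 cells. Clone sizes were not measured.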
